A study of Mus musculus with 6 samples.

Results

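The mouse genes for microRNA-26, together with the phosphatase genes in which they lie, form a set of 6 genes, of 20263 genes measured in regenerating mouse prostates. They were chosen by name: the microRNA genes Mir26a-1, Mir26a-2 and Mir26b and the host genes Ctdspl, Ctdsp2 and Ctdsp1. Each gene was read through the deposited probe set that carries its RefSeq transcript, and all 6 were found. Where a gene had several probe sets the brightest over all mice was used, which applied to Ctdsp2 alone of the 6.

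The samples came from 3 wild-type mice and 3 Gli1-/- mice, labelled as Gli1 loss-of-function mutants, all 10 weeks old. Every mouse of both groups had been castrated at 8 weeks, so that the prostate regressed, and had a testosterone pellet placed under the skin 2 weeks after that, so that it regrew. After 3 days of testosterone the ventral and dorsolateral lobes were taken, and those of 1 mouse made 1 sample. Total RNA of the whole lobes was read on a 1-colour expression array as log2 intensities, so a difference of 1 is a factor of 2. The sources used here give neither the part of Gli1 that the allele removes nor the strain.

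MicroRNA-26 is a small RNA that lowers the output of messenger RNAs whose 3′ untranslated regions pair with its seed. In vertebrates its genes lie inside introns of the CTDSP genes. These encode the small C-terminal domain phosphatases (SCPs), which remove phosphate from RNA polymerase II and from other nuclear proteins, and which work with the repressor REST to keep neuronal genes silent outside neurons. Host and microRNA can be cut from the same primary transcript. Reports in human and mouse cells, tumours among them, name Ezh2, Hgf and cyclin genes among the targets of microRNA-26, and name the retinoblastoma protein as a substrate of CTDSPL.

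The mature strands are shown because the seed, bases 2 to 8 counted from the 5′ end and written in capitals, defines the family and groups the 3 genes. Sequences are RefSeq's for the mouse build GRCm38.p6.
mmu-miR-26a-5p of Mir26a-1 and of Mir26a-2: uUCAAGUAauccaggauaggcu
mmu-miR-26b-5p of Mir26b: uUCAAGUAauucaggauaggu
mmu-miR-26a-1-3p of Mir26a-1: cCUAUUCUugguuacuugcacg
mmu-miR-26a-2-3p of Mir26a-2: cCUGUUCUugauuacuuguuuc
mmu-miR-26b-3p of Mir26b: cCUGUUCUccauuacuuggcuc
The 5p strands of the 3 genes shared 1 seed, and no other gene among the 1738 mature strands of the table carried it. Mir26a-1 and Mir26a-2 give an identical 5p strand of 22 bases. The 5p strand of Mir26b has 21 bases and differs from it, over those bases, at 2 positions outside the seed, C11U and C21U, with the base of miR-26a first and positions counted from the 5′ end. The 3p strands fell into 2 seed groups: those of Mir26a-2 and Mir26b shared a seed, and that of Mir26a-1 differed within the seed (A4G, from Mir26a-1 to Mir26a-2).

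The hairpins are shown because the probe sets are named for these precursor transcripts, with the 5p and 3p strands in capitals.
Mir26a-1, inside the span of Ctdspl, chr9:119031796-119031885, plus strand: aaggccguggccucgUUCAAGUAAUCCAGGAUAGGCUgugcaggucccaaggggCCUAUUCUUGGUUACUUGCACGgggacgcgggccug
Mir26a-2, inside the span of Ctdsp2, chr10:126995530-126995613, plus strand: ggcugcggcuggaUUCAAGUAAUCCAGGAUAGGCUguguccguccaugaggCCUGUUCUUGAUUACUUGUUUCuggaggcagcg
Mir26b, inside the span of Ctdsp1, chr1:74394310-74394394, plus strand: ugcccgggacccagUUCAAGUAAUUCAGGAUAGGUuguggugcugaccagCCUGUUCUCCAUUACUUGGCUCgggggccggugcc
The hairpins are 90, 84 and 85 bases long in that order, and outside the 5p strand they differ from each other. RNA was purified on a column of a kind that keeps mainly longer RNA, and the array reads labelled copies of total RNA. The values below are signals of probe sets named for the hairpin transcripts, and whether every probe lies inside a hairpin cannot be seen from the deposited table. They cannot be read as levels of mature microRNA-26. In whole lobes, fewer cells of a type and less RNA per cell cannot be told apart either.

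None of the 6 genes differed between the genotypes past the threshold. With limma fitted over all genes, 0 of the 6 had a Benjamini-Hochberg adjusted p under 0.05, against 4 of 20263 genes in all (0.0197%). At an unadjusted p under 0.05 the counts were 0 of 6 and 2129 of 20263 (10.5%). The ranges of the genotypes did not overlap in 0 of the 6 genes, against 14.3% of all genes. With 6 genes, counts of 0 lie near these shares. The gene with the lowest p was Mir26a-1, at 0.123 before adjustment.

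**Figure D1:**
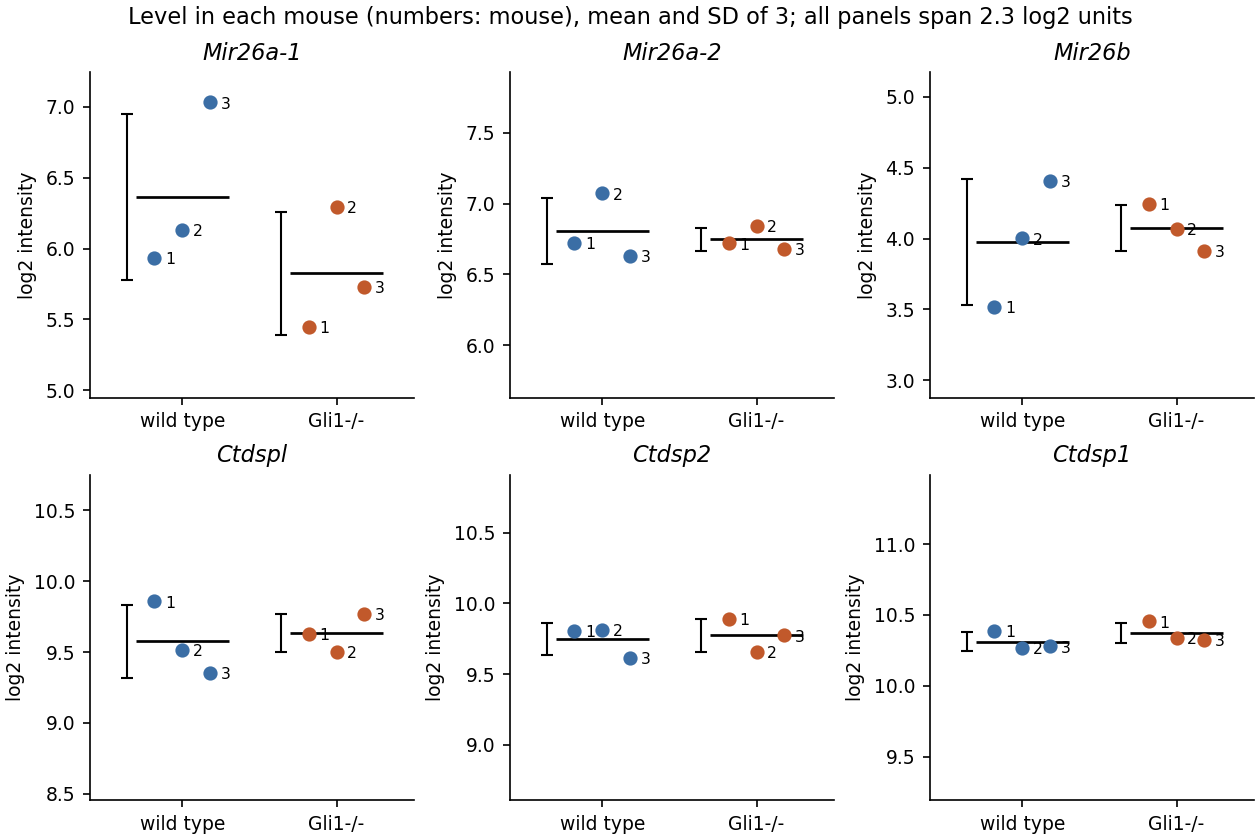
Log2 intensity of each member (y axis, every panel 2.3 log2 units tall) in wild-type (blue) and Gli1-/- (orange) mice, with a number for each mouse, a line at the mean and a bar for the SD of 3 mice. The readings of Ctdsp2 and Ctdsp1 in the lower row lie close together across all mice, while Ctdspl runs from 9.35 to 9.86. Mir26a-1 runs from 5.45 in mutant 1 to 7.03 in wild-type mouse 3.

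Mir26a-1, the microRNA gene inside Ctdspl, read 5.93, 6.13 and 7.03 in the wild-type mice and 5.45, 6.29 and 5.73 in the mutants, here and below in order of mouse number from 1 to 3. Wild-type mouse 3 stood above the other 5 mice, mutant 2 lay above wild-type mice 1 and 2, and mutants 1 and 3 were lowest. The group means were 6.37 ± 0.59 and 5.82 ± 0.43 (SD, n = 3 each). The difference, mutant minus wild type, was -0.54 (SE 0.31, limma adjusted p = 0.596), or 0.687-fold with a 95% interval from 0.415-fold to 1.14-fold. Without wild-type mouse 3 it shrank to -0.21, without mutant 1 to -0.35 and without mutant 3 to -0.50. It grew to -0.76 without wild-type mouse 1, to -0.66 without wild-type mouse 2 and to -0.78 without mutant 2.

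Mir26a-2, the microRNA gene inside Ctdsp2 that gives the same 5p strand, read 6.73, 7.07 and 6.63 in the wild-type mice. In the mutants it read 6.72, 6.84 and 6.68. All 3 mutants lay within the wild-type range. The means were 6.81 ± 0.23 and 6.75 ± 0.08 (SD, n = 3), a difference of -0.06 (SE 0.13, limma adjusted p = 0.931). Its sign turned when wild-type mouse 2, the highest reading, was left out (0.07).

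Mir26b, the microRNA gene inside Ctdsp1, was dim, at 3.52, 4.001 and 4.41 in the wild-type mice. The mutants read 4.24, 4.07 and 3.91. Again all mutants lay within the wild-type range, whose ends were wild-type mice 1 and 3. The difference was 0.10 (SE 0.21, limma adjusted p = 0.931) and turned to -0.13 without wild-type mouse 1. Over the array, 8.3% of genes had a mean signal at or below that of Mir26b, and differences this close to the background are compressed on arrays.

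Ctdspl encodes the phosphatase also called SCP3 and hosts Mir26a-1. It read 9.86, 9.52 and 9.35 in the wild-type mice and 9.63, 9.50 and 9.77 in the mutants. The mutants lay inside the wild-type range. The means were 9.58 ± 0.26 and 9.63 ± 0.13 (SD, n = 3), a difference of 0.06 (SE 0.15, limma adjusted p = 0.946). Leaving out wild-type mouse 3 gave -0.055, and leaving out mutant 3 gave -0.01.

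Ctdsp2 encodes SCP2 and hosts Mir26a-2. Its brighter probe set read 9.81, 9.81 and 9.62 in the wild-type mice and 9.89, 9.66 and 9.77 in the mutants, with overlapping ranges. The difference was 0.03 (SE 0.11, limma adjusted p = 0.968), and it turned to -0.04 without wild-type mouse 3 and to -0.03 without mutant 1. A further Ctdsp2 probe set, named for another transcript, had nearly the same mean over the 6 mice (9.75 against 9.76) and a difference of 0.09. RefSeq's promoter table places a downstream start site of Ctdsp2 at chr10:126995613, the last base of the Mir26a-2 hairpin. Which transcript the starts belong to was not analysed here.

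Ctdsp1 encodes SCP1 and hosts Mir26b. It varied least of the 6, reading 10.39, 10.27 and 10.28 in the wild-type mice and 10.46, 10.34 and 10.32 in the mutants. Mutant 1 was highest and wild-type mice 2 and 3 were lowest, with wild-type mouse 1 above the other mutants. The difference was 0.06 (SE 0.09, limma adjusted p = 0.889), or 1.04-fold with a 95% interval from 0.897-fold to 1.21-fold.

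**Figure D2:**
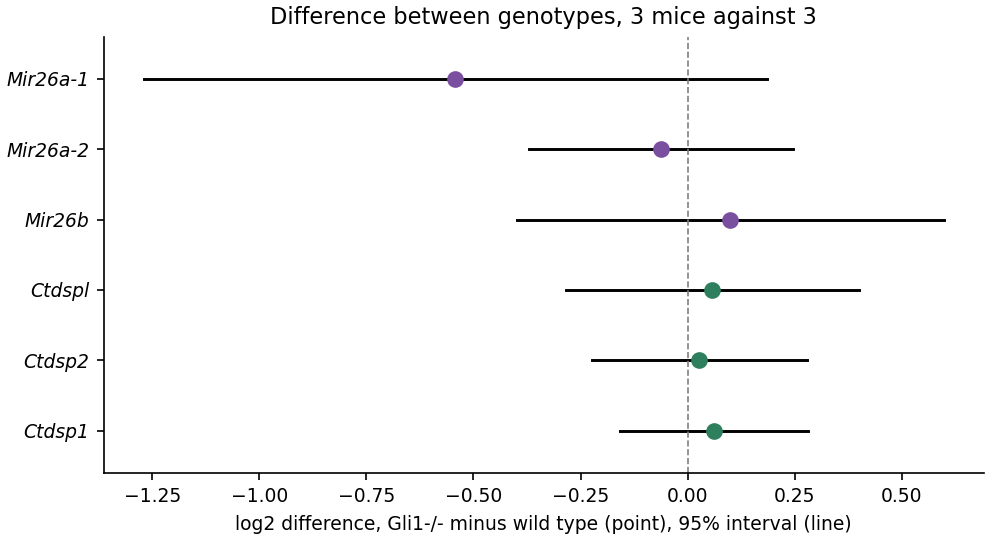
Log2 difference of each member, Gli1-/- minus wild type (x axis, point), with its 95% interval (line) from the limma fit, microRNA genes in purple and host genes in green. Every interval includes 0, and the interval of Mir26a-1, from -1.27 to 0.19, is the widest.

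The intervals bound the size of change that these 6 mice leave possible. For Ctdsp2 the 95% interval ran from 0.857-fold to 1.21-fold and for Ctdspl from 0.821-fold to 1.32-fold. For Mir26a-2 it ran from 0.773-fold to 1.19-fold and for Mir26b from 0.758-fold to 1.51-fold. A fall of Mir26a-1 to 0.415-fold therefore remains inside its interval, while a fall of that size lies outside the interval of each of the other 5 genes. These are intervals on deposited array values, which understate changes of dim genes. Whether the change of a microRNA gene differs from the change of its host was not tested.

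The spread between mice ranged widely among the 6 genes, with Mir26a-1 and Mir26b above all 3 hosts and Mir26a-2 below Ctdspl. The SD within a genotype was 0.514 for Mir26a-1, 0.336 for Mir26b and 0.175 for Mir26a-2. It was 0.206 for Ctdspl, 0.114 for Ctdsp2 and 0.070 for Ctdsp1, and the median over all genes was 0.152. Among the 598 genes whose mean lay within 0.1 of that of Mir26a-1, 97.3% had a smaller SD. The corresponding share was 91.8% for Mir26b and 59.7% for Mir26a-2, so 2 of the 3 microRNA genes were noisy for their level. Ctdsp1 was quiet for its level, with 5.7% of 263 such genes below it.

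**Figure D3:**
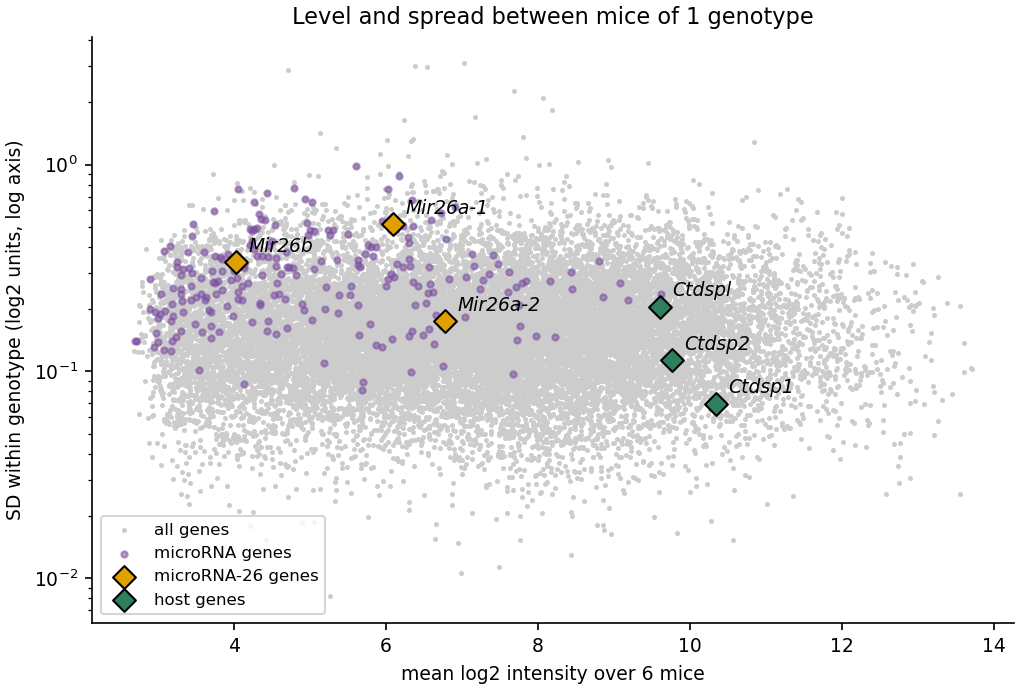
Mean log2 intensity over 6 mice (x axis) and SD within genotype in log2 units (y axis, log scale) of all genes (grey), microRNA genes (purple) and the 6 members (diamonds). Mir26a-1 and Mir26b lie high among genes of their level, and Ctdsp1 lies low at an SD of 0.070.

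As a class the 230 measured microRNA genes were dim and variable. Their median level was 4.69 against 7.21 for the other 20033 genes, and their median SD within a genotype was 0.273 against 0.151. By SD from the largest, Mir26a-1 ranked 21 of the 230, Mir26b 73 and Mir26a-2 188. Signals of different probe sets also depend on their probes, so they are not compared here as amounts of RNA. Of the class, 0 passed the limma test (lowest adjusted p = 0.101), and the median difference was -0.03. At an unadjusted limma p under 0.05, 26 of the 230 were higher and 10 lower, against 1201 and 928 of 20263 genes (5.93% and 4.58%). The share higher in the mutants was above that of all genes and the share lower was near it, which was not tested. The Mir26a-1 difference ranked 10 from the lowest in the class by size, but 55 by p.

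Host and microRNA were set against each other over the 6 mice. Mir26a-1 was highest where Ctdspl was lowest, in wild-type mouse 3. Pearson's r was -0.742 (exact permutation p = 0.0847, two-sided) and Spearman's rho was -0.771 (exact permutation p = 0.103). Adjusted over the 3 host pairs these became 0.254 and 0.308. When wild-type mouse 3 and mutant 1 were left out, the mice farthest from the median of Mir26a-1, r was -0.823. For Mir26a-2 and Ctdsp2 r was 0.242 (exact permutation p = 0.683, adjusted 0.726) and rho 0.429 (exact permutation p = 0.419, adjusted 0.629). For Mir26b and Ctdsp1 r was -0.188 (exact permutation p = 0.726, adjusted 0.726) and rho -0.0857 (exact permutation p = 0.919, adjusted 0.919). Leaving out the farthest pair of mice moved these to 0.933 and 0.84, so the pooled values of both rest on those mice. None of the 3 pairs passed.

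**Figure D4:**
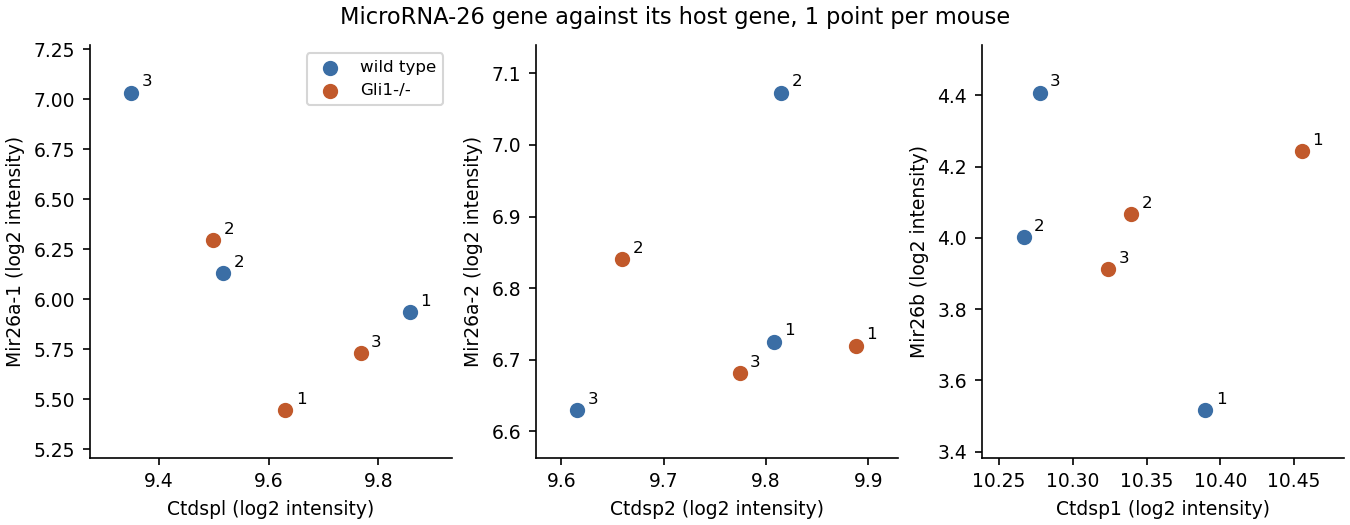
Each microRNA-26 gene (y axis, log2 intensity) against its host gene (x axis, log2 intensity), 1 point per mouse with its number, wild type in blue and Gli1-/- in orange. Mir26a-1 falls as Ctdspl rises over the 6 mice (r = -0.742), while r is 0.242 for Mir26a-2 with Ctdsp2 and -0.188 for Mir26b with Ctdsp1.

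Other intronic microRNAs gave a background for these pairs. Of 26 written pairs of a microRNA and its host, 24 had both probe sets, with 20 different hosts. The r over the 6 mice ran from -0.81 to 0.795 with a median of -0.121, and 9 of 24 were above 0. The sign of the genotype difference was the same for host and microRNA in 10 of 24. The microRNA had the larger SD in 18 pairs. No microRNA of these pairs passed (limma), and 2 of 24 had an unadjusted p under 0.05, against 10.5% of all genes. They were Mir101b, 0.86 higher in the mutants (SE 0.23, limma adjusted p = 0.263) with its host Rcl1 at -0.27, and Mir7-1, at -0.87 (SE 0.35, limma adjusted p = 0.449) with its host Hnrnpk at 0.31.

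The mean level of markers of another gland varied with Mir26a-1. The mean log2 level of 5 seminal vesicle genes was 4.76, 5.53 and 7.95 in the wild-type mice and 4.74, 7.38 and 4.75 in the mutants. Sorted by these values the mice stood in the order of their Mir26a-1 readings, wild-type mouse 3 first and mutant 2 next, with little between the last 3. Of the 5 genes 4 had a lower mean in the mutants, and the groups overlapped for all but Svs3a. This relation was noticed after the values were seen. With wild-type mouse 3 and mutant 2 both left out, the Mir26a-1 difference was -0.44 (SE 0.15, limma adjusted p = 0.416, 2 mice against 2). These mice held the highest Mir26a-1 readings of their genotypes (7.03 and 6.29), so leaving them out by itself narrows the spread and the SE. Epithelial markers of the prostate were among the strongest signals of the array, with Krt8 at 12.35 and the secretory transglutaminase gene Tgm4 at 13.48 in wild type.

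The genotype label had no check from its own transcript. Gli1 read 6.28, 6.48 and 6.51 in the wild-type mice and 6.34, 6.27 and 6.29 in the mutants. The difference was -0.12 (SE 0.10, limma adjusted p = 0.732). Whether its probe set lies in the part that the allele removes cannot be seen from these sources. A GLI binding motif, GACCACCCA on either strand, was found in 0 of the 4 RefSeq promoter windows of the host genes and in 0.253% of 32851 windows, each 250 bases before to 50 after a start. The windows at the upstream starts of Ctdspl, Ctdsp1 and Ctdsp2 were rich in G and C, at 79.3%, 72.0% and 66.7% against a median of 52.7%.

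Genes beside the hosts gave a local comparison. Slc11a1, a metal transporter gene of macrophage phagosomes beside Ctdsp1, read 7.46, 7.67 and 7.72 in the wild-type mice and 8.14, 8.37 and 7.86 in the mutants. It was higher in all 3 mutants, by 0.51 (SE 0.15, limma adjusted p = 0.296). Vill, a villin-like actin-binding gene beside Ctdspl, was higher in all 3 as well, by 0.70 (SE 0.17, limma adjusted p = 0.224). The groups overlapped for the other neighbours: Vil1 differed by 0.03, Avil by 0.08, Itga9 by -0.06 and Atp23 by -0.27. All 6 measured macrophage markers were positive, their mean level ran from 8.62 to 8.87 in wild type and from 9.12 to 9.51 in the mutants, and their part in the Slc11a1 value was not tested.

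Reported targets of microRNA-26 gave no call. Of 25 measured target genes 0 passed (limma), 12 were positive and 13 negative, and their median difference was -0.0087 against -0.0048 over all genes. At an unadjusted p under 0.05, 2 were higher and 1 lower, against 5.93% and 4.58% of all genes. Ranges did not overlap for 5 higher genes and 1 lower gene, against 8.34% and 6.01% of all genes. Because the list was drawn up with earlier results of these mice known, these counts are not independent evidence.

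Ezh2, the histone methyltransferase gene of the Polycomb complex and a much-reported target, read 9.74 ± 0.11 in wild type and 9.48 ± 0.35 in the mutants (SD, n = 3; difference -0.26, SE 0.18). Rb1, the retinoblastoma gene, which is also on the SCP substrate list, differed by -0.05 (SE 0.13). Hgf, the ligand gene of the receptor Met, differed by 0.63 (SE 0.11, limma adjusted p = 0.116) and was higher in all 3 mutants.

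Cell cycle targets ran both ways. The cyclin gene Ccne2 read 8.00 ± 0.39 in wild type and 6.98 ± 0.70 in the mutants (SD, n = 3), a difference of -1.02 (SE 0.34, limma adjusted p = 0.367) with no overlap, and its relative Ccne1 differed by -0.39 (SE 0.20). Ccnd2, another cyclin gene, was higher in all 3 mutants by 0.34 (SE 0.13), and the kinase gene Cdk6 differed by 0.30 (SE 0.25) with overlap. All 6 mitosis markers were negative as well, with mean levels of 8.47 to 9.11 in wild type and 7.93 to 8.78 in the mutants; their part in the cyclin values was not tested. Adam17, a sheddase gene, was higher in all 3 mutants by 0.28 (SE 0.12). The remaining genes without overlap, named after their values were seen, were the collagen-modifying enzyme gene Plod2 (0.29) and the RNA-binding protein gene Lin28b (0.14).

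**Figure D5:**
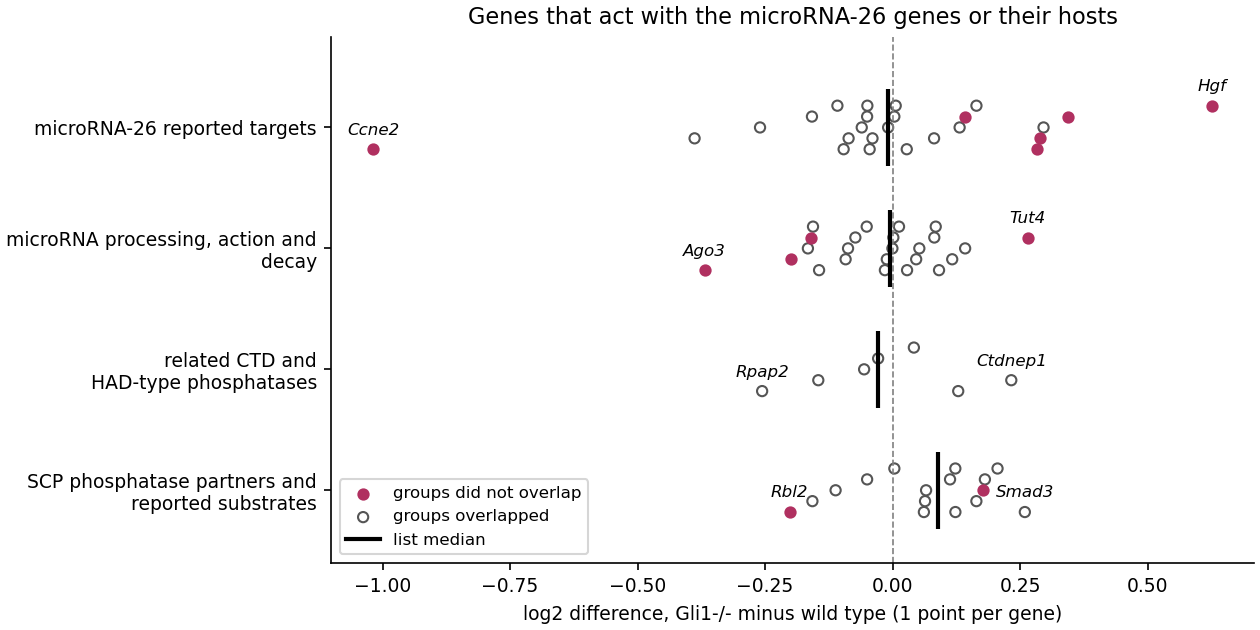
Log2 difference, Gli1-/- minus wild type (x axis), of each measured gene of 4 lists (y axis), filled where the groups did not overlap, with a line at the list median and the outermost genes named. The medians lie between -0.03 and 0.09, and none of the genes passed the limma test over all genes.

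Genes that make, use and remove microRNAs gave no call either. Of 24 measured, 0 passed (limma), 1 had an unadjusted p under 0.05 (10.5% of all genes), 4 had ranges without overlap (14.3% of all genes), 11 were positive and 13 negative, and the median difference was -0.0058. The nuclear cutting enzyme gene Drosha differed by 0.05 (SE 0.14) and its partner Dgcr8 by -0.09 (SE 0.09). Dicer1, which encodes the cytoplasmic enzyme that frees the mature duplex, differed by 0.09 (SE 0.11), and Ago2, which encodes the slicing Argonaute, by 0.08 (SE 0.13). Its relative Ago3 read 7.57 ± 0.13 in wild type and, lower in every mutant, 7.21 ± 0.03 (SD, n = 3; difference -0.37, SE 0.10, limma adjusted p = 0.277).

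Tut4 encodes a uridylyltransferase known to add bases to microRNA-26 in human cells. It was higher in all 3 mutants by 0.26 (SE 0.13, limma adjusted p = 0.531). Its relative Tut7 differed by 0.14 (SE 0.11) with overlap. The deadenylase gene Parn (-0.20, SE 0.09) and Tnrc6a (-0.16, SE 0.09), whose protein binds Argonautes and silences targets, were lower in all 3 mutants and did not pass.

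The other phosphatase genes of the CTD and HAD type also gave no call. Of 7 measured, 0 passed (limma) and 0 had an unadjusted p under 0.05 (10.5% of all genes). Ranges without overlap were found in 0 (14.3% of all genes), and 3 were positive (48.5% of all genes). With 7 genes, such counts lie near those shares. The closest relative, Ctdspl2, differed by -0.03 (SE 0.09). Ctdnep1, a phosphatase gene of the nuclear envelope, differed by 0.23 (SE 0.13), Ctdp1, which encodes the main phosphatase of the polymerase tail, by 0.13 (SE 0.12), and Rpap2, a polymerase-associated phosphatase gene, by -0.26 (SE 0.15).

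Among partners and reported substrates of the SCPs, 0 of 16 measured genes passed (limma), 1 had an unadjusted p under 0.05 (10.5% of all genes), 2 had ranges without overlap (14.3% of all genes), and 12 were positive, with a median difference of 0.09. Positive differences made up 48.5% of all genes. Rest differed by 0.12 (SE 0.10). Rbl2, the gene of the retinoblastoma relative p130, read 9.93 ± 0.01 in wild type and, lower in every mutant, 9.73 ± 0.02 (SD, n = 3; difference -0.20, SE 0.09, limma adjusted p = 0.467). Smad4, the shared mediator of TGF-beta and BMP signals, was higher in all 3 by 0.18 (SE 0.10), and Smad3 differed by 0.26 (SE 0.16) with overlap.

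For each member the genes of most similar profile were taken as those with the highest Pearson r of log2 values over the 6 mice, of 18707 named genes. With 6 mice many genes reach a high r by the shape of a few readings: 390 exceeded 0.9 for Mir26a-1, 448 for Mir26b, 538 for Ctdspl, 164 for Ctdsp1, 55 for Mir26a-2 and 51 for Ctdsp2. Closest to Mir26a-1 were Magohb (r = 0.998) and Gnaz (0.997), both highest in wild-type mouse 3. Closest to Mir26a-2 were Cdk14 (0.99) and Rsbn1l (0.977), highest in wild-type mouse 2, and closest to Mir26b were Rhox6 (0.998) and Nlgn3 (0.997). Ctdspl ran with Pigo (0.997), Ctdsp2 with Taf4b (0.986) and Mir124-2hg (0.982), and Ctdsp1 with Vmn1r64 (0.986) and Klf11 (0.985).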

How the data were processed

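The authors deposited log2 intensities, 1 column per mouse, and no further normalization was applied. Per the submitters' processing notes, RMA and Partek were used, with no versions. The RMA method subtracts background, aligns the arrays and combines the probes of a set into a log2 value, which compresses changes of dim genes. The array model and genome build are not stated in these sources. Of 32025 probe sets, 25343 (79.1%) matched 1 gene through a RefSeq table for GRCm38.p6, used only for names and neighbours, and 6682 matched none. Sample medians lay between 6.76 and 6.95.

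Gli1-/- minus wild type was tested over 20263 genes by limma 3.58.1 under R 4.3.3, with lmFit and eBayes, two-sided and with no covariate or filter. Genes with an adjusted p under 0.05 were called. On simulated data of the same 20263 genes it recovered 38% of 1.5-fold, 70% of 2-fold, 92% of 4-fold and 100% of 8-fold changes. More genes were called there than in the data, so the threshold was easier to pass. The changed genes were drawn from all genes, so these shares do not describe genes as variable as Mir26a-1 and Mir26b. Each sample came from a separate mouse, and the number of arrays limits the precision. Errors are SDs over mice or SEs of the fit.

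The members and lists were chosen with earlier results of these data known. The rule for named genes covered the members, Gli1, fixed genes of the lists whatever their values, up to 3 further genes per list by unadjusted p, coding neighbours of the hosts, and the 2 most similar profiles per member. The target gene Tet1 and the SCP partners Hdac1 and Polr2a were not analysed here. A few genes covered by this rule are not reported here.

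The alternatives were array weights, a replicate block, robust variance with an intensity trend, median centring, quantile normalization, averaged probe sets, a filter on dim genes, each mouse left out, and, chosen after seeing the data, wild-type mouse 3 and mutant 2 left out together.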

Additional observations from a re-analysis of the deposited data

How the results depend on the processing

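Of 81 member values under 14 alternatives, 73 kept direction and side of the threshold. The replicate numbers name separate mice, and the main fit did not pair them. Deviations of same-numbered mice correlated at 0.162, 0.248 and -0.153, and those of differently numbered mice at -0.317 to 0.249. With 3 mice per group, these correlations cannot decide whether the numbers pair the samples. With the replicate block 25 genes were called in place of 4, and the members kept their values and stayed uncalled, with Mir26a-1 at an adjusted p of 0.444. With each mouse left out 3 to 17 genes were called, 7 without wild-type mouse 2 and 17 without mutant 2. Median centring called 8 genes, the filter on dim genes 2, and the joint removal of wild-type mouse 3 and mutant 2 gave 8. Array weights called 4680 genes. That fit rests mainly on wild-type mouse 2 (weight 7.22) and mutant 3 (2.26), and its weights did not converge. There Mir26a-2 differed by -0.32 (adjusted p = 0.043), the only member value past the threshold in any alternative, Ctdsp2 by -0.020, and 6 target, 4 processing, 1 related phosphatase and 5 SCP partner genes passed. Without 1 mouse the difference ran from -0.78 to -0.21 for Mir26a-1, -0.15 to 0.070 for Mir26a-2, -0.13 to 0.32 for Mir26b, 0.02 to 0.10 for Ctdsp1, -0.037 to 0.085 for Ctdsp2 and -0.055 to 0.20 for Ctdspl. Sign turns fell to Mir26a-2 without wild-type mouse 2 (0.070), Mir26b without wild-type mouse 1 (-0.13), Ctdsp2 without wild-type mouse 3 (-0.037) or mutant 1 (-0.03) and Ctdspl without wild-type mouse 3 (-0.055) or mutant 3 (-0.01). The filter on dim genes gave no value for the 3 microRNA genes. Causes were not tested. Signal close to background limits what can be read from Mir26b.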
